A study of Mus musculus with 12 samples.

Results

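Lysosomes are acidic organelles in which proteases, glycosidases and lipid hydrolases break down what a cell takes up or recycles. The cathepsins are their main proteases, a vacuolar proton pump keeps the lumen acidic, and membrane proteins such as Lamp1 and Lamp2 line the organelle. Macrophages are rich in lysosomes because they digest engulfed cells, and dendritic cells use cathepsins to cut antigens and the invariant chain for presentation on MHC class II. The transcription factor Tfeb drives many lysosome genes through a motif around CACGTG.

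The 37 genes described here are 13 proteases, 9 glycan and lipid hydrolases, 3 soluble cofactors and carriers, 8 membrane proteins, 3 genes of the proton pump and Tfeb. They were chosen by name, all 37 had a row in the gene table, and they make up 37 of 27457 listed symbols, of which 26938 had a count. Another 65 lysosome genes were kept as a list to read beside them.

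Transcripts were counted by droplet single-cell RNA sequencing (10x Genomics, 5′ ends) in MC38 tumors. MC38 is a colon carcinoma line of the C57BL/6 background, and it was injected under the skin of female mice aged 8 to 12 weeks. Hosts were C57BL/6J (B6) mice or F1 offspring of B6 and a Collaborative Cross (CC) strain, an inbred line mixed from several founder strains, so that every host carried at least 1 B6 genome and every tumor came from the same cell line. The strains crossed to C57BL/6J were CC001/UncJ, CC002/UncJ, CC007/UncJ, CC036/UncJ, CC075/UncJ, CC079/TauUncJ and CC080/TauUncJ, called CC001 to CC080 below. At a tumor size of 75 to 110 mm3 each mouse received 200 µg of an isotype control (clone 2A3) or of anti-PD-1 (aPD1, clone 29F.1A12), and tumors were taken 48 h later and sorted to 90% CD45+ and 10% CD45- cells. Each of 12 libraries (pools) held 4 hashtagged tumors, an isotype and an aPD1 tumor of each of its strains, which gave 48 tumors. The replicate is the tumor. The study classed CC001, CC002 and CC075 hosts as responders to aPD1 (10 isotype and 10 aPD1 tumors) and CC036, CC079 and CC080 hosts as non-responders (9 and 9), from its screen of aPD1 response, and the labels give the strain but not this class. The remaining 10 tumors, from B6 and CC007 mice, have no class. Each of the 4 hashtags marked tumors of a single treatment, so hashtag and treatment cannot be told apart.

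The table held 93126 cells with a median of 3333.5 unique molecular identifiers (UMIs, each a captured transcript) per cell, and tumors held 53 to 3082 cells. Of 87940 distinct cell barcodes, 4990 were found in more than 1 library. The authors' 27 clusters were grouped by marker genes into macrophages (10 clusters, 68059 cells), T/NK cells (9 clusters, 12021 cells) and dendritic cells (3 clusters, 7817 cells). In the summed macrophages all 10 macrophage markers exceeded 100 counts per 1000000 UMIs (CPM), while none of the 11 T/NK markers reached 10 CPM. The 5′ method counts a transcript once whatever its length, so CPM is not divided by length here, and it is compared between cells and tumors for a given gene.

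Promoter sequences are shown first for members that hold the Tfeb-type motif, the DNA letters through which the pathway's own factor is known to act. RefSeq windows on GRCm38.p6, each from 250 bases before to 50 after a transcription start, were found for 30 of the 37 members. The 6 letters CACGTG, which read the same on both strands, stood in a window of 10 of these 30 members and in 8.09% of all 27025 genes with a window. The longer palindrome TCACGTGA, which contains CACGTG, stood in 5 of the 30 (Ctsa, Ctsd, Gla, Atp6v1a and Mcoln1) and in 1.12% of genes. Each stretch below lies before a RefSeq start and overlaps no exon of GENCODE vM21. The Lamp1 and Ctss stretches end where GENCODE starts the gene, while the Atp6v1a stretch lies inside the GENCODE gene, whose start is further upstream. The stretches of Ctsa, Ctsd, Gla and Mcoln1 overlap annotated exons and are not printed. Capitals mark TCACGTGA in Atp6v1a, 4 copies of CACGTG in Lamp1, and in Ctss an ISRE-type repeat (GAAA, NN, GAAA) of the kind found in interferon-responsive promoters.
Atp6v1a (a subunit of the proton pump, chr16:44139358-44139417, minus strand): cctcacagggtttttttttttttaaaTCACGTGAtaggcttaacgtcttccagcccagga
Lamp1 (chr8:13159074-13159160, plus strand): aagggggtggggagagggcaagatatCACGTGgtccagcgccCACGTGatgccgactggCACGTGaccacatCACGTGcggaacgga
Ctss (cathepsin S, chr3:95526739-95526785, plus strand): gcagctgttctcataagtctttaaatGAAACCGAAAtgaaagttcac

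The other members with CACGTG were Ctsf, Ctsl, Lgmn and Gaa. The ISRE-type repeat, searched on both strands, stood in 2 of the 30 members (Ctss and Lamp1) and in 3.99% of genes. TTCNNNGAA, the general form of a STAT site, stood in 1 member (Ctsc) and in 9.55% of genes, again over both strands. A match of letters is a description of the window and not a bound site.

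The members together took their largest shares of transcripts in macrophage clusters. Summed over the 37 genes, they made up 2.13% of all UMIs in cluster 9, 2.01% in cluster 27 and 1.77% in cluster 26, against 0.844% in cDC2 (cluster 14), 0.749% in cDC1 (cluster 6) and 0.65% in migratory dendritic cells (cluster 11). In T/NK clusters the share lay between 0.123% (cluster 13) and 0.225% (cluster 8), apart from cluster 12 with 0.839%, which carried macrophage markers at 42.2 to 58% of their level in macrophages. All 10 macrophage clusters were above the cDC2 share, the lowest being cluster 19 (0.932%), whose cells were shallow with a median of 1225 UMIs. Plasmacytoid dendritic cells (cluster 18, 1.45%) reached the level of macrophage cluster 5 (1.45%). The 3 members of highest CPM in macrophages were Ctss (2263), Psap (2047) and Ctsc (1373).

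**Figure D1:**
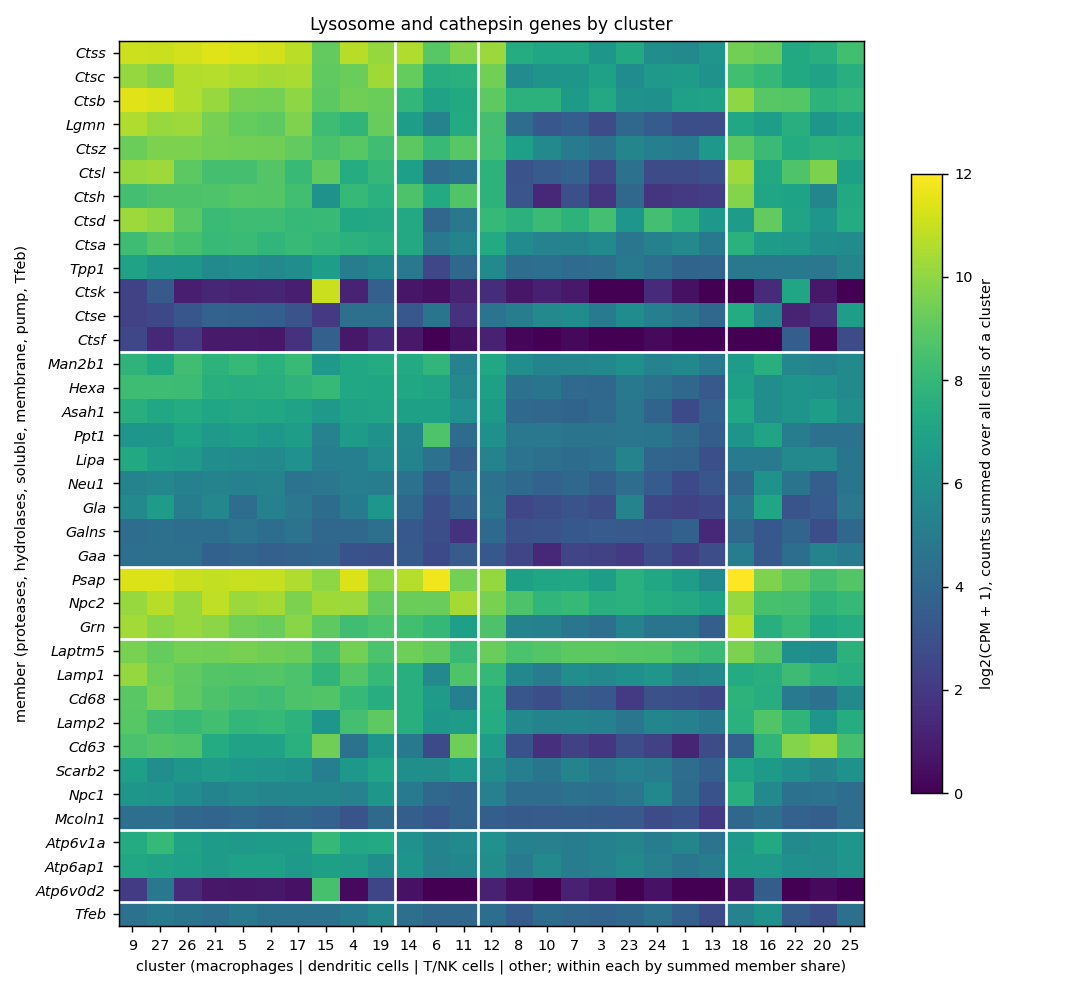
Level of each of the 37 genes (rows, grouped by role) in each of the 27 clusters (columns, grouped by cell type), as log2(CPM + 1) of the counts summed over all cells of a cluster. Ctsk and Atp6v0d2 are bright in macrophage cluster 15, Ppt1 in cDC1 (cluster 6), and Cd63 in clusters 20, 22, 15 and 11.

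Among the proteases, the endopeptidases cathepsin B, D and L and legumain (Lgmn) were graded across macrophage clusters. Ctsb reached 2802 CPM in cluster 9, whose leading genes include Lyve1, Folr2 and Cd163, and 2482 in cluster 27, led by Gpnmb and Mmp12, against 715 in cluster 2. Over tumors with at least 20 cells of a cluster, Ctsb lay between 1527 and 3186 CPM in cluster 27 (n = 45) and between 402 and 1064 in cluster 2 (n = 47), and it was higher in cluster 27 in 45 of 45 tumors that had both. Ctsd followed the same order, with 1221 CPM in cluster 9, 1007 in cluster 27 and 305 in cluster 2. Lgmn, which cleaves after asparagine, had 1527 CPM in cluster 9 and 513 in cluster 2. Ctsl had 1149, 1219 and 449 CPM in clusters 9, 27 and 2, but its spread was wide, from 306 to 3291 CPM over the tumors of cluster 27.

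Cathepsins S, C and Z had other leading clusters. Ctss, which cuts the invariant chain, was highest in cluster 21, led by interferon-induced genes such as Ifit3 and Cxcl10, at 2715 CPM. It had 2560 CPM in cluster 5, 2360 in cluster 2 and 561 in cluster 15, and cluster 21 was above cluster 27 in 37 of 44 tumors. Ctss was found in 97.6% of cluster 21 cells and 96.9% of cluster 2 cells. Ctsc, the activator of granule serine proteases, was also highest in cluster 21, at 1646 CPM, with 1567 in cluster 26 close below. Cluster 27 had 846 CPM and was below cluster 21 in 44 of 44 tumors. For Ctsz the highest cluster was 26, which is led by C1qa, C1qb and C1qc, with 802 CPM, and cluster 27 had 798.

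The proteases of lowest CPM in the summed macrophages were Ctsk, Ctse and Ctsf. Ctsk, the collagen-degrading cathepsin of bone-resorbing cells, had 2101 CPM in cluster 15 against 1 to 11.8 in the other macrophage clusters and 136 in fibroblasts (cluster 22), although only 37.5% of cluster 15 cells had a Ctsk UMI. Ctse, an aspartic protease, was highest in plasmacytoid dendritic cells (cluster 18, 165 CPM) and lay at 10.3 CPM in macrophages and at 36.2 in T/NK cells without cluster 12. With 609 UMIs in all, Ctsf was the least counted member.

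Cluster 15 was small and held most of the Ctsk signal of the whole series. It had 293 cells, and 86.8% of all Ctsk UMIs and 58.9% of all Atp6v0d2 UMIs came from it. Atp6v0d2, a proton pump subunit of macrophages and bone-resorbing cells, had 368 CPM there against 0.218 to 27 in the other macrophage clusters, with a UMI in 55.6% of its cells. Only 5 tumors had 20 or more of its cells (159 of the 293). Their Ctsk levels in the cluster were 1291, 4107 and 1740 CPM in CC079 tumors (isotype of pools 1 and 2, aPD1 of pool 5), 3951 in the CC007 isotype tumor of pool 7 and 1601 in the CC075 isotype tumor of pool 11. Atp6v0d2 was at 284, 474, 379, 521 and 418 CPM in the same order. Both genes were above cluster 27 in 5 of 5 tumors. Acp5, a lysosomal phosphatase of the other list, had 2332 CPM in cluster 15 and at most 88.3 in the other macrophage clusters. Cluster 15 cells had a median of 10418 UMIs, above the 6874 of the next deepest cluster, and 6 of 10 macrophage markers were lower there than in any other macrophage cluster. Doublets were not called here, and their part was not tested. Clusters were made from the same counts, so these levels are a description.

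Among dendritic cells, cDC1 and cDC2 held different members. Ppt1, which removes fatty acids from proteins, had 412 CPM in cDC1 and 43.9 in cDC2, and was higher in cDC1 in 27 of 27 tumors with both, the lowest cDC1 tumor (213 CPM) being above the highest cDC2 tumor (81). Psap, the precursor of the saposins that help lipid hydrolases, was at 3385 CPM in cDC1. Ctsd was at 14.7 CPM in cDC1, the lowest of all clusters and below the 341 CPM of T cell cluster 3 in 18 of 18 tumors. Ctsh, an aminopeptidase, had 396 CPM in cDC2 and 161 in cDC1, and was higher in cDC2 in 27 of 27 tumors. Migratory dendritic cells had Cd63, a tetraspanin of late endosomes, at 662 CPM against 27.5 in cDC2 and 5.53 in cDC1, and the cholesterol carrier Npc2 at 1338 CPM against 643 in cDC2. Plasmacytoid dendritic cells had the highest Psap (4109 CPM), Grn (1562), Ctsl (1226), Ctsh (867) and Npc1 (188).

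Among the remaining cells, Cd63 was highest in cluster 20 (1166 CPM) and in fibroblasts (876), and within macrophages it ran from 21.2 CPM in cluster 4 to 665 in cluster 15. Granulocytic cells (cluster 16, 529 cells) had the highest Gla (133 CPM), Neu1 (67.6) and Tfeb (67.6), at a median of 815 UMIs per cell. Lamp2 was highest in the shallow macrophage cluster 19, with 525.7 CPM.

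In T/NK cells most members were present at low levels. The 10 macrophage markers, taken as a background level, stood at 0.688 to 1.06% of their macrophage level in T/NK cells without cluster 12. Whether free RNA, doublets or misassigned cells gave these counts was not tested. All 37 members exceeded 1.06%, and 30 exceeded it more than 3-fold. Laptm5, a lysosomal protein of blood cells that lowers antigen receptor levels, had 447 CPM, 65.3% of its macrophage level, and Ctsd had 263 CPM, 65.3%. Lgmn (1.24%), Ctsh (1.09%), Ctsl (1.58%) and Cd68 (1.94%) lay near that level. Ctse was the single member above its macrophage level, at 351%.

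The main comparison asked whether macrophages of responder and non-responder hosts differed in these genes, over 20 and 18 tumors, with counts summed over the macrophages of each tumor and treatment in the model. Levels per tumor are CPM scaled by the trimmed mean of M values (TMM). Ctsh, Ctsz, Ctss, Ppt1, Lipa, Man2b1 and Npc2 were higher in responders at an adjusted p under 0.05, by 0.20 to 0.37 on the log2 scale. That is 7 of 37 members, all in 1 direction, against 745 of 11646 genes called (6.4%), of which 454 were higher (3.9%) and 291 lower (2.5%). The other 18 members with a positive value and 12 with a negative value did not pass. The median over the 37 was 0.04 on the log2 scale, and -0.01 over all genes tested. The summed share of the 37 genes ranged from 1.37 to 2.03% of macrophage UMIs in isotype-treated and 1.45 to 1.86% in aPD1-treated responders. Non-responders had 1.21 to 1.67% and 1.24 to 1.78%, so the groups overlapped. The 6 markers of cDC1, cells with high Ppt1 and Psap, summed to 266 to 506 CPM in responder macrophages (median 403). In non-responder macrophages they summed to 228 to 452 CPM (median 305). Over all macrophages 4 of the 6 markers reached 10 CPM and 1 reached 100 CPM. Whether cDC1 gave these counts, and their part in the values below, was not tested.

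**Figure D2:**
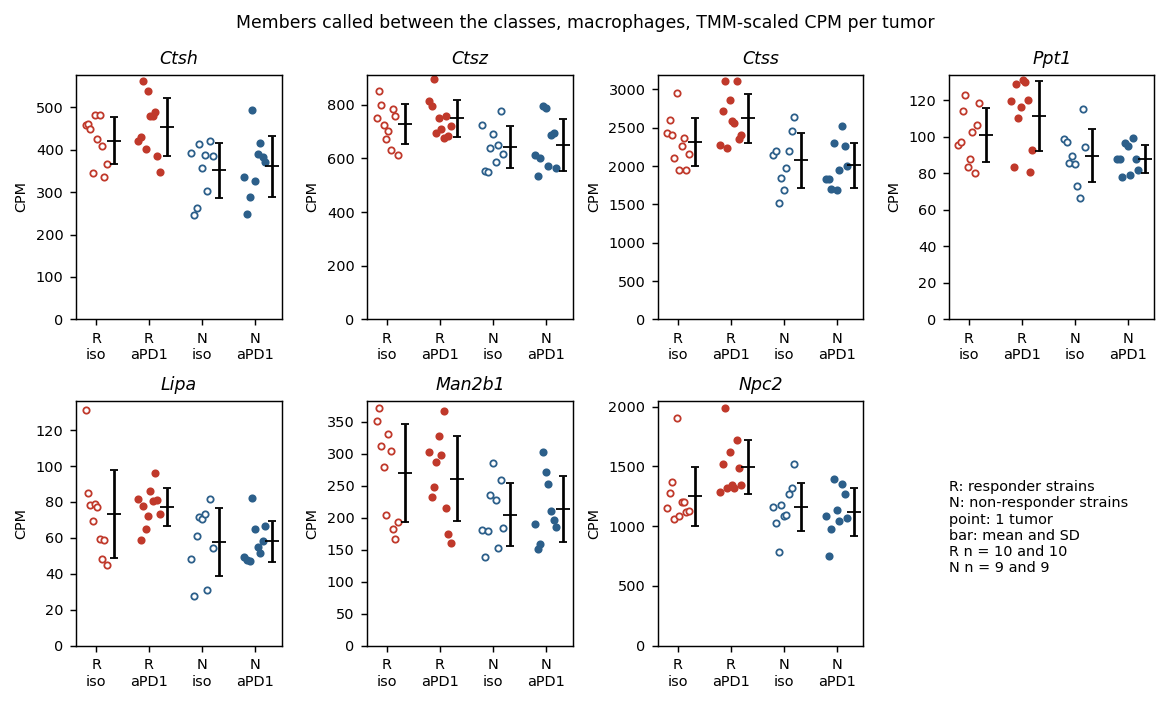
The 7 members that passed the class test, in macrophages. Each point is a tumor (responder n = 10 isotype and 10 aPD1, non-responder n = 9 and 9), the y axis is TMM-scaled CPM from 0, and the bar is the mean with SD. Every panel shows overlap between the classes, with the responder points shifted up.

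Ctsh lies on chromosome 9 (90054152 to 90076089, plus strand, GRCm38). Responder tumors had 337 to 481 CPM under isotype (median 437) and 347 to 562 under aPD1 (median 454). Non-responder tumors had 247 to 421 CPM under isotype (median 386) and 249 to 494 under aPD1 (median 372). The 4 lowest values were those of CC036 tumors. The responder strain CC075 had a median of 375 CPM, below the non-responder strains CC079 (388) and CC080 (385). Of the responder tumors, 16 of 20 were above the non-responder median. The log2 difference was 0.30 ± 0.07 (SE, edgeR adjusted p = 0.00824).

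Ctsz, a carboxypeptidase on chromosome 2 (174427493 to 174439039, minus strand), had medians of 738 and 736 CPM in responder isotype and aPD1 tumors and 637 and 612 in non-responder tumors. The groups overlapped between 614 and 797 CPM, but 19 of 20 responder tumors exceeded the non-responder median. The log2 difference was 0.20 ± 0.05 (edgeR adjusted p = 0.0119).

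Ctss, on chromosome 3 (95526786 to 95556403, plus strand), had medians of 2311 and 2573 CPM in responder isotype and aPD1 tumors and 2147 and 1953 in non-responder tumors, with all tumors between 1512 and 3113. Here 18 of 20 responder tumors lay above the non-responder median. The log2 difference was 0.28 ± 0.07 (edgeR adjusted p = 0.0145).

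Of the hydrolases, Ppt1 had medians of 100 and 118 CPM in responder isotype and aPD1 tumors and 89.8 and 88 in non-responder tumors, and 8 of 20 responder tumors were above every non-responder tumor (log2 difference 0.27 ± 0.07, edgeR adjusted p = 0.0164). Lipa, which frees cholesterol and fatty acids from lipoproteins, had medians of 73.3 and 79.2 against 60.9 and 55.2 CPM (0.37 ± 0.11, adjusted p = 0.0384). Man2b1, an alpha-mannosidase, had medians of 292 and 267 against 183 and 196 CPM (0.35 ± 0.11, adjusted p = 0.0448). The cholesterol carrier Npc2 had medians of 1177 and 1413 against 1159 and 1083 CPM (0.27 ± 0.09, adjusted p = 0.0464). The isotype medians of Npc2 thus lay close together, within the ranges of 1058 to 1904 and 785 to 1523 CPM. Over 30 alternative settings Ctsh, Ctsz, Ctss and Ppt1 passed in 21 to 24, Lipa and Man2b1 in 14 each and Npc2 in 9.

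Members that did not pass included Ctsc (0.24 ± 0.08, edgeR adjusted p = 0.0571), Psap (0.24 ± 0.08, 0.0754) and Tfeb (0.15 ± 0.06, 0.133), and on the other side Tpp1, a tripeptidyl peptidase (-0.25 ± 0.08, 0.0647). By role, 3 of 13 proteases, 3 of 9 hydrolases and 1 of 3 soluble proteins were called, and none of 8 membrane proteins, 3 pump genes and Tfeb. The share called over all genes was 6.4%, and the roles, which are small groups, were not compared by a test. The pump genes Atp6v0d2 (-1.01 ± 0.36), Atp6v1a (-0.05 ± 0.07) and Atp6ap1 (-0.04 ± 0.05) had negative values. For Atp6v1a and Atp6ap1 the value was smaller than its SE. Atp6v0d2 turned to 0.18 without the small macrophage cluster that held most of its UMIs. Of the 7 called genes, 6 had a promoter window (Ctsh had none), and none of these held CACGTG. In the list of 65 other lysosome genes, 63 were tested and 7 passed, 5 higher and 2 lower in responders. Those higher included Ctso (0.30), Cst3 (0.28), Slc11a1 (0.40) and Atp6v0a2 (0.27), and Atp6v0a1 (-0.35) and Atp6v1e1 (-0.24) were lower.

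Tumors of a strain are not independent draws of a class, which has 3 strains a side. With the tumors of each strain summed to 1 library (3 against 3), no member passed in edgeR and 3 of 14571 genes did (0.0206%). Ppt1 was the 1 member with an unadjusted p under 0.05 there (0.28 on the log2 scale, edgeR adjusted p = 0.828), and the 7 genes all stayed positive (0.19 to 0.34). For 7 of the 37 members all 3 responder strain means lay above all 3 non-responder means, against 4.72% of genes tested, and these were Ctsc, Ctss, Ctsz, Npc2, Psap, Ppt1 and Tfeb. For 1 member, Atp6v0d2, all lay below (5.59% of genes). Without CC036 hosts 3 members passed, against 6.47% of genes, of which Ppt1 was 1 of the 7 genes (0.28), while Tpp1 (-0.31) and Ctsk (-1.99) passed as lower. The rest of the 7 did not pass and had smaller positive values: Lipa 0.26, Ctss 0.23, Man2b1 0.22, Ctsh 0.19, Npc2 0.17 and Ctsz 0.16. By library size without TMM scaling, 5 members passed, 4 higher and 1 lower, against 7.16% of genes, of which 325 were higher and 509 lower.

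Pools held tumors of both classes in 8 of 12 cases, which allowed the classes to be set side by side within a library. Ppt1 and Lipa were higher in the responder tumors in 8 of 8 pools, with pool differences of 0.08 to 0.60 and 0.09 to 0.78 on the log2 scale. Ctsz was higher in 7, Ctsh and Man2b1 in 6, Ctss in 5 and Npc2 in 4 of 8. With the pool as a block 10 members passed against 8.32% of genes: the 7 except Npc2 (edgeR adjusted p = 0.203), then Ctsc, and as lower Tpp1 (-0.24, 0.03), Ctsk (-1.98, 0.034) and Atp6v0d2 (-1.20, 0.046).

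**Figure D3:**
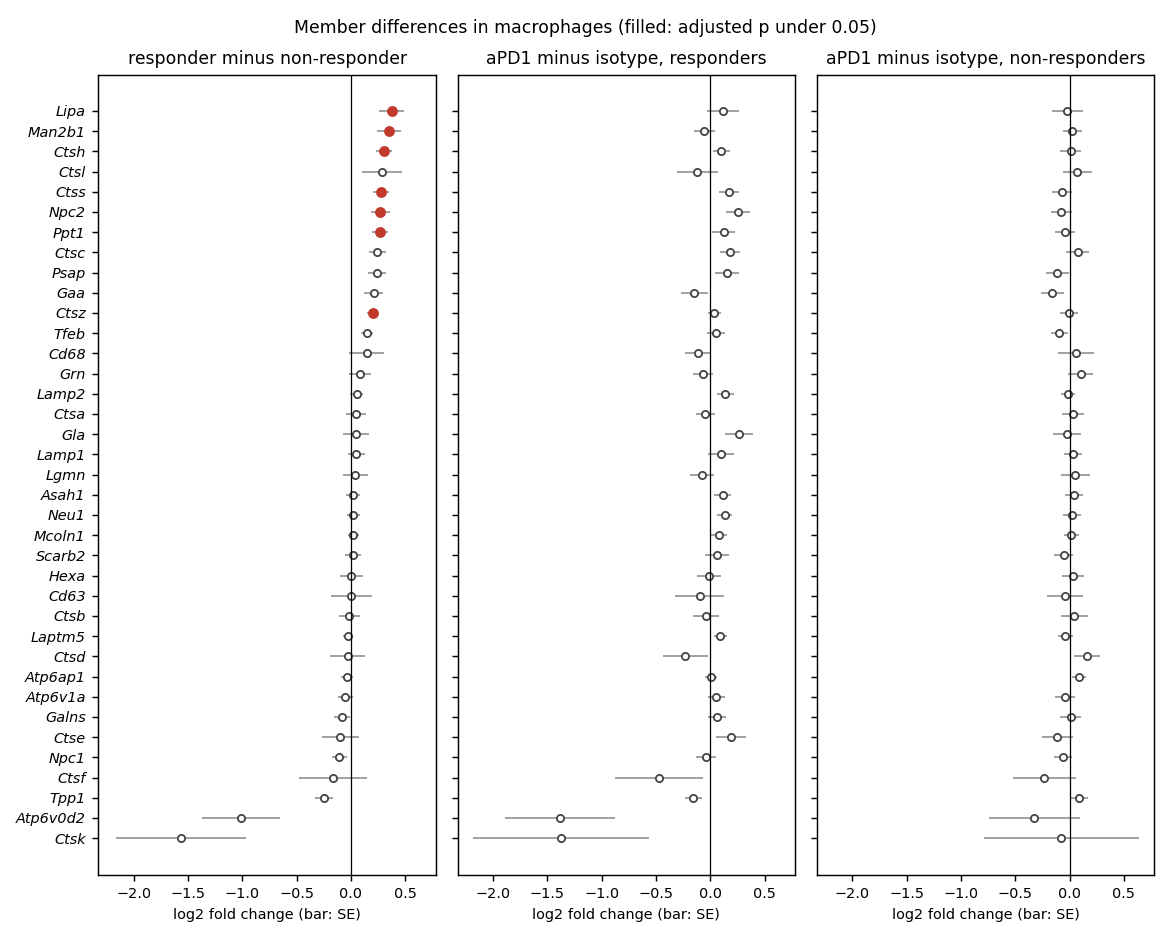
Log2 differences of all 37 members in macrophages with their SE, for responder minus non-responder hosts and for aPD1 minus isotype within each class. Filled points passed an adjusted p of 0.05, which 7 members did in the left panel and none in the others, where only Ctsk, Atp6v0d2 and Ctsf in responders and Atp6v0d2 in non-responders fell below -0.3.

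Ctsk and Atp6v0d2 had the most negative values of the class comparison, -1.57 ± 0.60 and -1.01 ± 0.36 (edgeR adjusted p = 0.116 and 0.0874). Ctsk ranged from 0.406 to 81 CPM in responder tumors (median 2.25) and from 0.886 to 165 in non-responder tumors (median 15.9), a wide overlap. The class totals of cluster 15 cells differed in the same direction: 61 in 20 responder tumors, at most 25 in a tumor, and 192 in 18 non-responder tumors, at most 49 in a tumor. CC079 hosts gave 129 of these 192 cells. Tumor by tumor, Ctsk did not always follow the cell number. The CC079 isotype tumor of pool 1 had 49 cells and 91.2 CPM. The CC002 isotype tumor of pool 3 had 4 cells and 81 CPM, and the CC002 aPD1 tumor of pool 12 had 10 cells and 1.35 CPM. Without cluster 15 the medians were 1.45 and 1.90 CPM for Ctsk and 1.66 and 1.91 CPM for Atp6v0d2, and the values turned to 0.17 and 0.18 on the log2 scale (edgeR adjusted p = 0.825 and 0.882). The 7 calls were also 7 without that cluster.

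**Figure D4:**
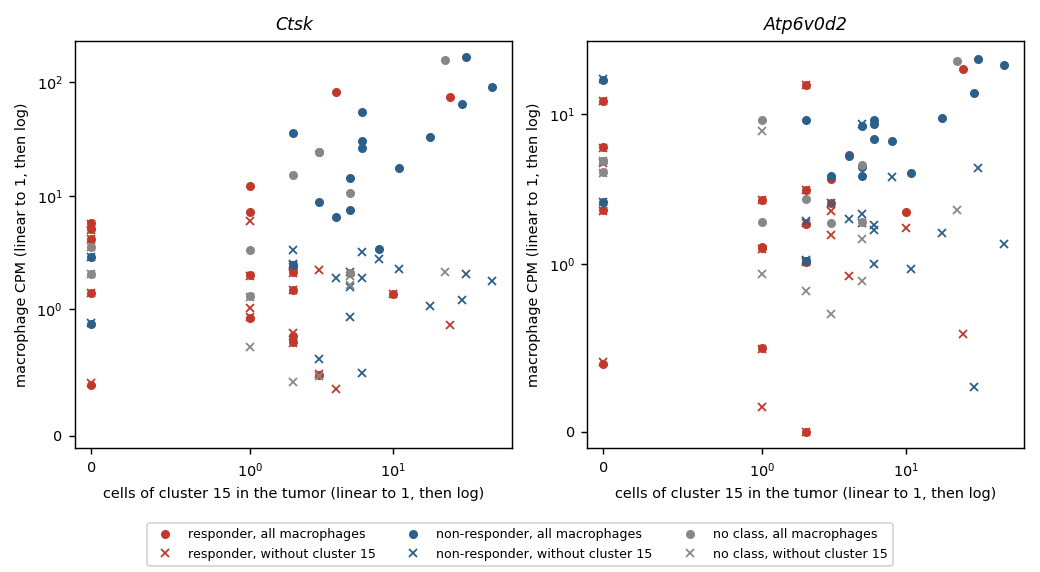
Macrophage level of Ctsk and Atp6v0d2 in each of 47 tumors (y axis, CPM) against its number of cluster 15 cells (x axis), both axes linear to 1 and then logarithmic. Filled points use all macrophages and crosses leave cluster 15 out, which brings Ctsk in classed tumors down to at most 6 CPM.

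The class difference was also fitted within the 7 macrophage clusters that had enough tumors, since cluster makeup could move with class. Cluster 26 made up a median of 26.3% of macrophages in responder and 20.8% in non-responder tumors. All other macrophage clusters had lower medians in responders, among them cluster 27 (4.60 against 6.53%) and cluster 9 (0.75 against 1.55%). Within cluster 26, 9 of 34 members tested passed, against 7.72% of genes: Ctsh (0.39 ± 0.08), Npc2 (0.41 ± 0.10), Lipa (0.38 ± 0.09), Psap (0.35 ± 0.11), Ctss (0.33 ± 0.09), Ppt1 (0.32 ± 0.08), Man2b1 (0.32 ± 0.10) and Ctsz (0.24 ± 0.06) as higher, and Tpp1 (-0.32 ± 0.10) as lower. Cluster 5 had 2 calls, Ppt1 (0.33) and Ctsc (0.27), against 4.41% of genes, cluster 27 had Npc2 (0.38, against 0.797%), and clusters 2, 4, 19 and 21 had none by edgeR, against 3.89%, 0.465%, 0.348% and 1.82% of genes, with 10, 2, 0 and 3 members at an unadjusted p under 0.05. Ctsh, Ctsz, Npc2 and Man2b1 had positive values in 7 of 7 clusters and Lipa in 6 of 6. Ctss was positive in 6 and negative in 1 (-0.05 in cluster 4), and Ppt1 was positive in 4 and negative in 2 of 6 (-0.04 in cluster 4 and -0.06 in cluster 27). Whether clusters differ from each other in the class effect was not tested.

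The second question was whether aPD1 changed these genes within a host class. In responder hosts aPD1 against isotype gave values between -1.38 and 0.26 on the log2 scale, with a median SE of 0.10, and edgeR called no member and 1 of 11800 genes (0.00847%). By unadjusted p, 2 members were under 0.05: Atp6v0d2 (-1.38 ± 0.51, adjusted p = 0.28) and Npc2 (0.26 ± 0.11, adjusted p = 0.334). Npc2 was higher after aPD1 in 9 of 10 pairs of the same strain and pool, from a median of 1177 CPM to 1413. Laptm5 was also higher in 9 of 10 pairs, and Ctss, Lamp1, Lamp2, Asah1 and Neu1 in 8, the highest counts of the 37 members. The fewest were 3 of 10, for Cd68 and Tpp1. For the members with the highest counts, median pair differences ran from 0.07 (Laptm5) to 0.28 (Npc2) on the log2 scale. Pairs were not counted over all genes, so no background share stands beside these counts. In non-responder hosts Npc2 was higher in 4 of 9 pairs, edgeR called no member and none of 11899 genes, and no member had an unadjusted p under 0.05. The difference between the classes in the aPD1 effect of Npc2 was 0.34 ± 0.15 (adjusted p = 0.415), and no member passed that test, against 1 of 12302 genes (0.00813%), with 1 member under an unadjusted p of 0.05. Over all strains no member of 37 and no gene of 12705 passed, and 3 members (Atp6v0d2, Ctsc and Neu1) were under an unadjusted p of 0.05. DESeq2 also called no member in these 4 comparisons.

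The class difference was also fitted within each treatment. In aPD1 tumors alone 6 members passed against 6.34% of genes: Npc2 (0.43), Lipa (0.42), Ctss (0.39) and Ppt1 (0.35) higher, Tpp1 (-0.36) and Atp6v0d2 (-1.57) lower in responders. In isotype tumors alone none passed, against 0.195% of genes. These 6 genes were picked for passing in aPD1 tumors, so smaller values in isotype tumors are expected from that choice. The isotype values were Npc2 0.10, Lipa 0.32, Ctss 0.15, Ppt1 0.18, Tpp1 -0.14 and Atp6v0d2 -0.52. The direct test, of the aPD1 effect between the classes, called no member (lowest edgeR adjusted p = 0.415). Of the 7, Ctsh (0.26), Ctsz (0.18) and Man2b1 (0.40) had an unadjusted p of 0.02, 0.0217 and 0.0199 in isotype tumors. Their values in aPD1 tumors were 0.34, 0.22 and 0.30.

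Levels were then compared between host strains, whatever their class. Over the 8 strains 30 of 37 members passed the test for any difference, against 52.8% of all genes. Strains were spread over pools, and with the pool as a block 8 members (Ctsc, Ctse, Ctsh, Ctsk, Ctsl, Ctss, Ctsz and Tpp1) passed against 13.5% of genes. These 8 are all proteases, but the proteases Ctsa, Ctsb, Ctsd, Ctsf and Lgmn did not pass (edgeR adjusted p from 0.302 to 0.930). Other members lay just above the threshold: Atp6v0d2, Npc2, Atp6ap1, Man2b1, Ppt1 and Lipa, at 0.0728 to 0.0999.

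**Figure D5:**
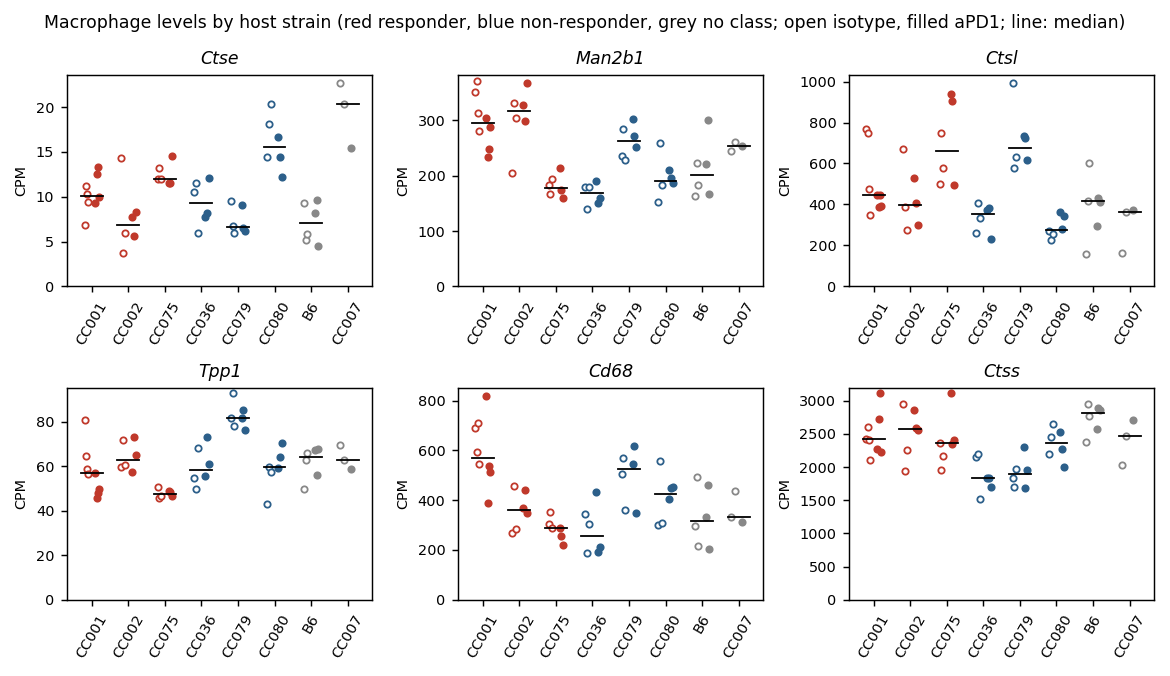
Macrophage CPM of 6 members in each tumor by host strain (red responder, blue non-responder, grey no class, open isotype, filled aPD1, line at the median). Tpp1 of CC079 hosts lies above all other strains' ranges except 1 tumor of CC001, and Man2b1 of CC001 and CC002 hosts is mostly above 200 CPM.

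Ctse had the smallest p of the members (edgeR adjusted p = 3.32e-08). Its 3 CC007 tumors were at 15.4 to 22.7 CPM and its 6 CC080 tumors at 12.2 to 20.3, while B6 tumors were at 4.52 to 9.64 and CC079 tumors at 5.99 to 9.5. CC007 and CC080 thus overlapped each other and stood above B6 and CC079.

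Man2b1 (adjusted p = 1.9e-07) was highest in CC002 (205 to 367 CPM), CC001 (233 to 371), CC079 (228 to 303) and CC007 (245 to 261), and lowest in CC036 (139 to 190). The CC036 range lay below that of each of these 4 strains. The responder strain CC075 had a median of 178 CPM, below the non-responder strains CC080 (191) and CC079 (262). With the pool as a block the strain test of Man2b1 no longer passed.

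Ctsl (adjusted p = 5.13e-05) was at 576 to 992 CPM in CC079 and 495 to 937 in CC075 tumors, and at 225 to 365 in CC080. CC075 is a responder strain and CC079 a non-responder strain, and the class value of Ctsl was 0.29 ± 0.19 (edgeR adjusted p = 0.42). Without CC079 hosts it was 0.78 (adjusted p = 0.0047). Ctsl was -0.33 (adjusted p = 0.611) in pools 1 to 5 alone and 0.99 (adjusted p = 0.0043) in pools 8 to 12 alone. CC079 tumors were in the first of these sets and CC075 tumors in the other, while CC001, CC002 and CC080 tumors were in both. With the pool as a block the strain test of Ctsl still passed (edgeR adjusted p = 0.00014). The part of the pool set in these class values was not tested.

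Tpp1 (adjusted p = 7.48e-05) was at 76.4 to 92.8 CPM in CC079 tumors, and 45.7 to 50.6 in CC075. B6 tumors, next in the order of strain medians, were at 49.9 to 67.8 CPM, below every CC079 tumor. Cd68, a glycoprotein of macrophage lysosomes, was at 387 to 820 CPM in CC001 and 190 to 434 in CC036 tumors (adjusted p = 7.73e-05), and it no longer passed with the pool as a block (edgeR adjusted p = 0.142). Ctss was highest in B6 (2373 to 2948 CPM) and lowest in CC036 (1512 to 2199) and CC079 (1682 to 2300).

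Dendritic and T/NK cells were tested for the same class difference, with fewer cells per tumor. In dendritic cells 33 members were tested over 18 responder and 18 non-responder tumors and edgeR called none, against 1.1% of genes (0.446% as lower), with 3 members under an unadjusted p of 0.05. Those of smallest p were Ctsb (-0.34 ± 0.11, adjusted p = 0.133) and Npc1 (-0.34 ± 0.13, adjusted p = 0.234). With the pool as a block Ctsb passed (-0.33, adjusted p = 0.0121), against 3.31% of genes. Without CC001 hosts Ctsa, Ctsb, Ctsd and Hexa passed as lower, against 4.01% of genes. The 10 macrophage markers summed to 800 to 8213 CPM in the dendritic cells of responders (median 2454) and 1950 to 4672 in those of non-responders (median 3005), and their part in these values was not tested. The makeup of the dendritic cells differed too. Markers of cDC1 summed to 503 to 1975 CPM in responders (median 1163) and 499 to 1390 in non-responders (median 870). Markers of cDC2 summed to 376 to 1153 CPM (median 647) and 579 to 1371 CPM (median 900). Whether the makeup of the dendritic cells differed, and its part in these values, was not tested either. The aPD1 effect in dendritic cells called none of 34 members and none of 9567 genes in edgeR, with Ctsl (0.43 ± 0.20) the 1 member under an unadjusted p of 0.05.

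In T/NK cells 28 members passed the filter on low counts, over 20 responder and 17 non-responder tumors, and edgeR called none, against 2.09% of genes (0.903% higher, 1.19% lower), with 3 members under an unadjusted p of 0.05. Neu1, a sialidase, had the smallest p (-0.62 ± 0.19, adjusted p = 0.0734), and Ctss followed (-0.35 ± 0.16, adjusted p = 0.295). With the pool as a block Hexa (-0.64, adjusted p = 0.0321) and Npc2 (-0.30, adjusted p = 0.0493) passed as lower in responders, against 3.93% of genes. The T/NK cells tested included cluster 12, which carried macrophage markers. Macrophage markers summed to 150 to 1893 CPM in T/NK cells of responders (median 683) and 188 to 2694 in those of non-responders (median 808). Their part was not tested. Of the other lysosome genes Gnptab, which builds the mannose 6-phosphate tag of lysosomal enzymes, was higher in responders (0.63 ± 0.17, edgeR adjusted p = 0.0305).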

How the data were processed

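Per the labels and the study's methods, reads were aligned with Cell Ranger to GRCm38 (GENCODE vM23) and clustered in Seurat 5.0.1, and the authors removed cells of high mitochondrial or ribosomal share. The authors deposited raw UMI counts per gene and cell, with each cell's library, strain, treatment and cluster. F1 hosts carry non-B6 alleles, and their effect on alignment to the B6 reference was not tested. Clusters were named from marker lists (at least 3 markers at 100 CPM).

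The members, lists and tests were chosen with earlier results of these data known. Counts were summed per tumor and cell group (at least 50 macrophages or T/NK cells, 30 dendritic cells, 20 cells of a cluster), which kept 47 tumors for macrophages with totals of 412779 to 11778425 UMIs. They were tested across all genes with edgeR 4.0.16 (quasi-likelihood, TMM, filterByExpr, Benjamini-Hochberg adjusted p under 0.05). The SE is the log2 fold change over the root of F. DESeq2 1.42.0 was an alternative. The edgeR code was tested on simulated data. Named were the members past the threshold, at most 8 a comparison by p, those of highest level, and up to 5 other lysosome genes per direction, of which 1 is not reported here. Members beyond this rule, Acp5 and the cluster contrasts were chosen after their values were seen. The isotype and aPD1 tumors of a strain share a pool by the labels, and their deviations from group means correlated above 0.1 in 19 of 22 pairs (median r 0.38, 3037 genes). Each tumor has its own animal identifier, except that 1 identifier stands on 2 CC080 tumors. Doublets were not called here. Gene positions are from GENCODE vM21 on GRCm38.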

Additional observations from a re-analysis of the deposited data

Results flagged for a closer look

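Of 48 groups of 9 or 10 tumors examined (12 members, 4 groups each), 3 held a tumor set apart from the rest by Dixon's test at the 95% level, which chance alone flags in about 1 group in 20. Npc2 of the CC002 isotype tumor of pool 12 was at 1904 CPM, against 1369 for the next of the 10 responder isotype tumors. Lipa of the CC001 isotype tumor of pool 1 was at 131 CPM, against 85 for the next. Ctsk of the CC075 aPD1 tumor of pool 11 was at 24 CPM, against 12.2 for the next of the 10 responder aPD1 tumors.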

How the results depend on the processing

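In the class comparison of macrophages, with 7 members called, the number called was 3 without the filter on low counts, 11 with DESeq2, 4 without CC001 hosts, 4 without CC002, 3 without CC036, 2 in pools 1 to 5 alone, 0 in isotype tumors alone, 0 with 1 library per strain, and 3 to 9 when a pool was left out (3 without pool 2 or 5, 4 without pool 8, 9, 10 or 12). The other 12 alternatives stayed within 1.5 times, among them 10 with the replicate block of pools and 9 with a term that splits pools 1 to 6 from pools 7 to 12 (by number, since no processing dates were used here). The 7 genes kept their direction in 30 of 30 alternatives, and passed in 24 (Ctsh), 23 (Ctsz, Ppt1), 21 (Ctss), 14 (Lipa, Man2b1) and 9 (Npc2). The alternatives reuse the same tumors, and Ctsc, Psap and Tpp1, which did not pass, also kept direction in 30 of 30. A kept direction is therefore not separate evidence. Ctsk and Atp6v0d2 turned from -1.57 and -1.01 to 0.17 and 0.18 without cluster 15, an alternative added after seeing the data. That cluster holds 92.5% and 60.3% of their macrophage UMIs. The strain comparison fell from 30 members to 8 with the replicate block, and the cause was not tested. In T/NK cells 1 member passed with library size alone, 1 with DESeq2, 2 with the replicate block, 2 without CC036, 1 in pools 1 to 5 alone and 0 to 1 without a pool. In dendritic cells 1 passed with the replicate block, 4 without CC001 and 0 to 1 without a pool, and for aPD1 1 without the filter on low counts (Ctsl). The causes were not tested. The replicate block changed no call of a member in the 5 aPD1 comparisons, and it was not run within clusters or within a treatment. The 4 aPD1 comparisons in macrophages had 0 members called in every alternative. T/NK cells and dendritic cells had medians of 570191 and 1022833 UMIs per tumor against 6254700 in macrophages, and the part of this depth in the number of calls was not tested.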
